A study of Mus musculus with 16 samples.

Results

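Accessible chromatin was examined at the 7 ATAC-seq peaks that the deposited peak table assigns to 3 genes, Slc2a9 (4 peaks), Dcdc2a (2 peaks) and Tril (1 peak), out of 70150 peaks in the table. Each gene holds 1 peak that was called lower in Supt7l KO than in WT embryonic stem (ES) cells, and these 3 peaks are called lost sites here. The genes were chosen from that contrast, so the Supt7l KO values at the sites are a description and carry no test. The name is relative: on the mean, 34.3% to 39.4% of the WT accessibility was still measured at the 3 sites in Supt7l KO cells.

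The series compared 4 genotypes of mouse ES E14 cells, an established male line, with 4 libraries each: Supt7l KO, AID-Zzz3, AID-Yeats2 and WT. AID stands for an auxin-inducible degron fused to Zzz3 or to Yeats2, which sends the protein to the proteasome once auxin is added. All cells, WT and Supt7l KO included, were given auxin for 24 h. The serum medium held LIF (1500 U/ml), the GSK3 inhibitor CHIR99021 (3 µM) and the MEK inhibitor PD0325901 (1 µM). Each library was made from 100000 cells with 25 nM Tn5 and 14 PCR cycles. The series text names 2 independent clones and 2 experiment days but does not tie them to these 16 libraries. P-values therefore measure the spread between libraries of a line, part of which may be technical. Whether the Supt7l KO and WT cells carry the receptor that auxin-driven degradation needs is not given in the sources used here.

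ATAC-seq uses the Tn5 transposase to cut and tag DNA that is not wrapped tightly in nucleosomes, so that cut sites pile up at active promoters and enhancers. Supt7l is a structural subunit of SAGA, and Zzz3 and Yeats2 are subunits of ATAC. Both are coactivator complexes built around the histone acetyltransferases Gcn5 and Pcaf, and SAGA also carries a histone H2B deubiquitinase. Slc2a9 encodes GLUT9, a member of the glucose transporter family that carries urate across the plasma membrane of liver and kidney cells. Dcdc2a encodes a doublecortin-domain protein that binds microtubules and sits in the axoneme of primary cilia. Tril encodes a membrane protein with leucine-rich repeats that serves as an accessory component of Toll-like receptor signalling, mainly in the brain.

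Sequence was at hand for gene starts. Of the 3 lost sites, only the one near Tril spans an annotated RefSeq start, that of the long noncoding RNA gene Gm16499, on the opposite strand to Tril. Its window is shown with the promoters of Dcdc2a and Tril, which lie in neighbouring peaks that were not called lower. Each window runs from 250 bases before the start to 50 bases after it (RefSeq, GRCm38.p6, 5′ to 3′). Capitals mark 3 motifs chosen after the Gm16499 window had been read.
Gm16499 promoter, in the lost site near Tril, chr6:53844649-53844948, plus strand: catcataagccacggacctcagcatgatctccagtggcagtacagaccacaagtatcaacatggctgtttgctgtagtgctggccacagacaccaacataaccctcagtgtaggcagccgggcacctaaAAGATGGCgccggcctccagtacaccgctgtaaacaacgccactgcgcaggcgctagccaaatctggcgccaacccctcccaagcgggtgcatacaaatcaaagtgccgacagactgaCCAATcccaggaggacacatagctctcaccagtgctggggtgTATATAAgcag
Dcdc2a promoter, in the peak beside the Dcdc2a lost site, chr13:25055754-25056053, plus strand: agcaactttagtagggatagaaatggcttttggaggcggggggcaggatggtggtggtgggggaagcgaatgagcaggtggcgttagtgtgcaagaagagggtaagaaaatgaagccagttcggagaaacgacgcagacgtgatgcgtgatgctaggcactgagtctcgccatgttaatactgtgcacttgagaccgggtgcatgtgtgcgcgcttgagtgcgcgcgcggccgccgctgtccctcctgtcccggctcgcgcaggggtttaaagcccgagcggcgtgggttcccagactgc
Tril promoter, in the peak over the Tril start, chr6:53820776-53821075, minus strand: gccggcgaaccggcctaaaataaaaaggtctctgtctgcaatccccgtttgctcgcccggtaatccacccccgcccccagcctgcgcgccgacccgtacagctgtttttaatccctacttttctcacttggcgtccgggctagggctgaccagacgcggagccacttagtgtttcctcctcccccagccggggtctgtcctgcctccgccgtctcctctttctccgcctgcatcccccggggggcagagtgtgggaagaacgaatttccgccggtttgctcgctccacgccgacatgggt
The Gm16499 window was 55.3% G+C with 11 CpG dinucleotides. The Dcdc2a window was 59.3% G+C with 24 CpG, and the Tril window 62.7% G+C with 26 CpG. The CpG count was above that of 58.6% of 32851 RefSeq promoter windows for Gm16499, of 80.0% for Dcdc2a and of 83.1% for Tril. The Gm16499 window held AAGATGGC, the core motif of the factor YY1, beginning 121 bases before the annotated start, and 2.75% of all windows held these letters on either strand. It also held CCAAT (37.4% of all windows) and TATATAA (3.24%), the last beginning 39 bases after the start. None of 12 other motifs was found on either strand of these 3 windows. They were ATGCAAAT for POU factors, AACAATG for SOX factors, TCAAGGTCA for Esrrb, GGGTGTGG or its variant GGGCGTGG for KLF factors, TGACTCA for AP-1 and TGACGTCA for CREB. The others were the E-box CACGTG, the ETS motif CCGGAAG, the NRF1 motif GCGCATGCG, the CTCF core AGGGGGC and the TATA box TATAAA. These 12 were held by 0.423% (Esrrb) to 13.6% (TATA box) of all windows. The Slc2a9 RefSeq promoter window lay in no peak and held the AP-1 motif, as did 5.2% of all windows. A match describes letters in a window and is no measured binding site.

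The lost site of Slc2a9 (mm10, chr5:38493910-38495338, 1429 bp) lies in intron 1 of 10 of the RefSeq transcript, inside the 153876 bp gene. The table places it 2667 bp from the nearest Ensembl start and 7528 bp from the nearest RefSeq start. It gave 38, 45, 36 and 33 counts in the Supt7l KO libraries (replicates 1 to 4), against 137, 100, 143 and 102 in WT. Scaled to 1000000 counts in peaks per library with TMM factors (CPM), this came to 9.74 ± 0.901 CPM in Supt7l KO and 24.7 ± 1.2 CPM in WT (SD, n = 4 each). All 4 Supt7l KO libraries lay below all 4 WT libraries, and the fitted log2 change was -1.35 ± 0.17 (SE). The spread within each line was small: the Supt7l KO libraries ran from 9.11 to 11.1 CPM and the WT libraries from 23.1 to 25.7 CPM.

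The lost site of Dcdc2a (chr13:25052508-25053552, 1045 bp) is intergenic, 2974 bp upstream of the Dcdc2a start, and overlaps a MTEb element, a long terminal repeat (LTR) of the ERVL-MaLR class of retrotransposons. Its counts were 39, 27, 31 and 23 in Supt7l KO, against 145, 101, 117 and 75 in WT. The level was 7.78 ± 2.06 CPM in Supt7l KO and 22.3 ± 3.83 CPM in WT (SD, n = 4 each). The groups did not overlap, with a highest Supt7l KO library of 9.57 CPM and a lowest WT library of 17.9 CPM. The fitted log2 change was -1.54 ± 0.20 (SE).

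The lost site near Tril (chr6:53844349-53845630, 1282 bp) lies 24159 bp upstream of the Tril start. It overlaps RLTR27, an LTR of the ERVK class, and holds the RefSeq start of Gm16499 shown above. The Ensembl column places it in intron 1 of 4 of a transcript. It was the weakest of the 3 in WT, with 8.65 CPM per kb of peak against 17.3 at the Slc2a9 site and 21.4 at the Dcdc2a site. Counts were 6, 28, 13 and 14 in Supt7l KO, against 44, 55, 52 and 59 in WT. This gave 3.80 ± 1.80 CPM in Supt7l KO and 11.1 ± 2.77 CPM in WT (SD, n = 4 each). The lines did not overlap here either, but Supt7l KO replicate 2 (5.88 CPM) came near the lowest WT library (8.20 CPM). The fitted log2 change of -1.50 had the widest error, 0.29 (SE).

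Replicates 1 and 2 shared deviations across peaks in all 4 lines, as did replicates 3 and 4, so each difference was also taken within these sets (2 against 2 libraries, mean log2 CPM with a prior count of 2). At the Slc2a9 site Supt7l KO minus WT was -1.33 in replicates 1 and 2 and -1.28 in replicates 3 and 4. At the Dcdc2a site it was -1.70 and -1.27, and near Tril -1.60 and -1.44. The drop was present in both sets at all 3 sites, but these are the libraries from which the sites were chosen. From replicates 1 and 2 alone, the site near Tril was not called lower.

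**Figure D1:**
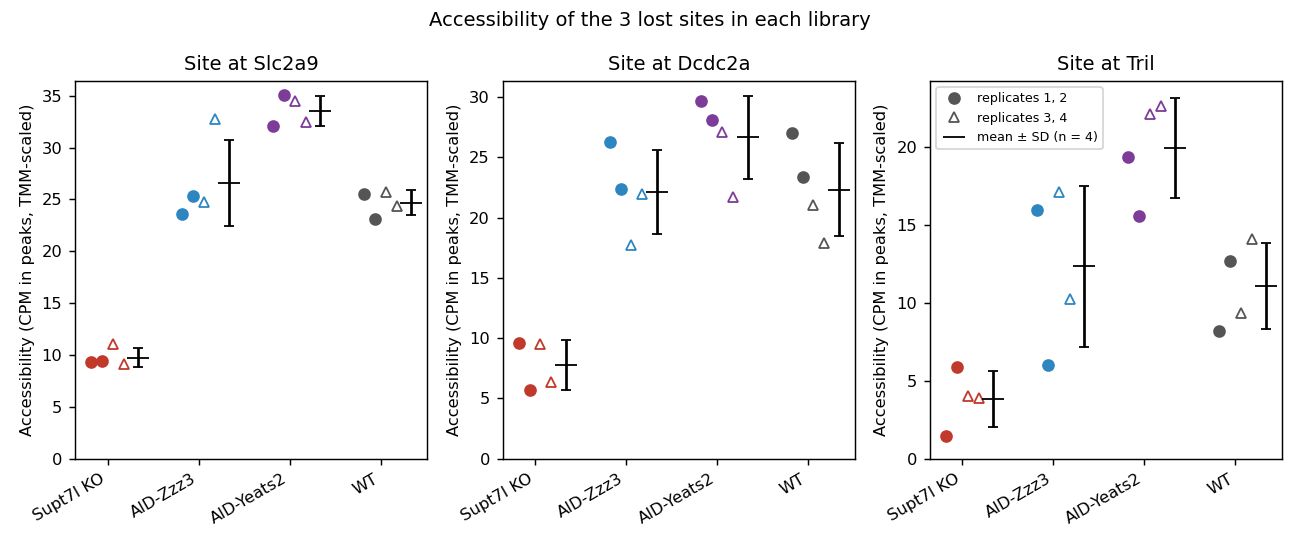
Accessibility in CPM (TMM-scaled counts in peaks) of the 3 lost sites in each of the 16 libraries, with the mean ± SD of each line beside its points. The 4 Supt7l KO libraries lie below the 4 WT libraries in each panel. The AID-Yeats2 libraries lie above the WT libraries at Slc2a9 and Tril.

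Among the 69692 peaks tested, 519 were called lower in Supt7l KO than in WT (0.745%) and 238 higher (0.342%), at a Benjamini-Hochberg adjusted p under 0.05 from edgeR's quasi-likelihood test. Ranked by log2 change among the 519 lower peaks, the Dcdc2a site stood at 56, the site near Tril at 67 and the Slc2a9 site at 103. Each gene had 1 peak in the call, and the members nearest to it in log2 change that were not called were a Slc2a9 intron peak (-0.73) and the Dcdc2a promoter (-0.34). The plot of all tested peaks shows where the sites lie. Their ranks and their place in it follow from the choice of the sites by this change.

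**Figure D2:**
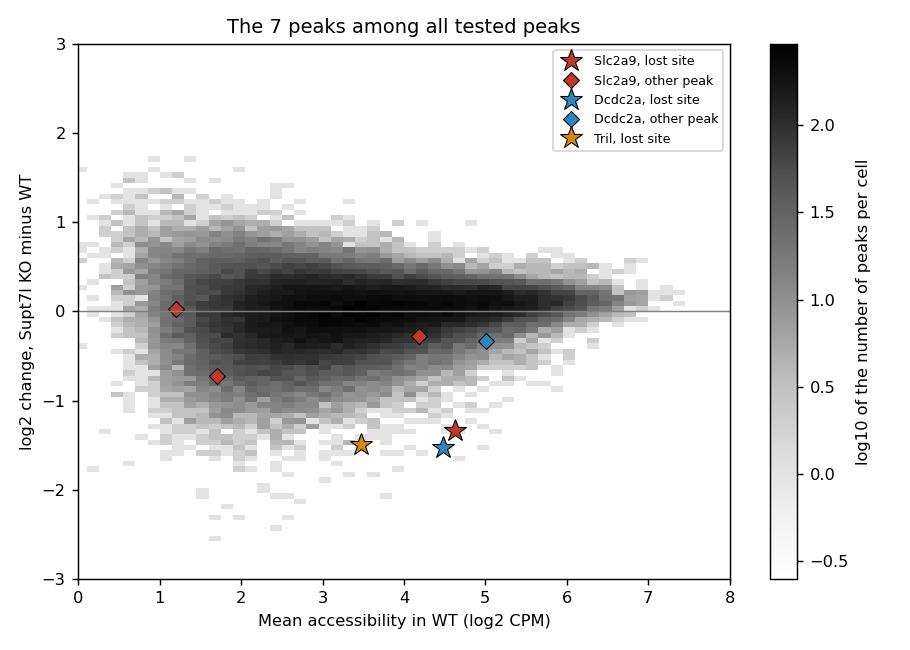
Fitted log2 change, Supt7l KO minus WT, against the mean WT level (log2 CPM) for all tested peaks, as a density in grey (log10 of the number of peaks per cell), with the 7 peaks of Slc2a9, Dcdc2a and Tril on top. The 3 stars, the lost sites, lie between -1.35 and -1.54, and the 4 diamonds, the other peaks of Slc2a9 and Dcdc2a, lie between -0.73 and 0.03.

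The promoter of Dcdc2a was measured next to its lost site, across a gap of 1386 bp. This peak (chr13:25054939-25056626) gave 88, 119, 87 and 102 counts in Supt7l KO, against 152, 168, 141 and 151 in WT. The level was 25.4 ± 2.84 CPM in Supt7l KO and 32.2 ± 6.35 CPM in WT (SD, n = 4 each). The lines overlapped, and the fitted log2 change was -0.34 ± 0.15 (SE), against -1.54 at the lost site.

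Slc2a9 has no peak within 1000 bp of an annotated start, so its lost site was set beside its 3 other intron peaks. The nearest, 4675 bp away (chr5:38487600-38489234), had 14.8 ± 2.28 CPM in Supt7l KO and 18.2 ± 3.62 CPM in WT (SD, n = 4 each). The lines overlapped there, with a fitted log2 change of -0.28 ± 0.19 (SE). The other 2 were weak, at 2 to 24 counts per library over Supt7l KO and WT. One (chr5:38469814-38470147) had 10, 11, 2 and 8 counts in Supt7l KO and 13, 14, 21 and 15 in WT, with a log2 change of -0.73 ± 0.42 (SE). The other (chr5:38477754-38477977) had 11, 14, 4 and 9 counts in Supt7l KO and 24, 9, 8 and 5 in WT, with a log2 change of 0.03 ± 0.44 (SE). Both pairs of lines overlapped, and so few counts leave wide errors.

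Tril has no second peak of its own by the first gene name. The peak over its RefSeq start (chr6:53818260-53821124) was chosen for comparison after its values were seen. The Ensembl columns assign this peak to Gm16499, as a promoter peak 282 bp from a start. It gave 265, 344, 199 and 270 counts in Supt7l KO, against 341, 285, 327 and 254 in WT. The level was 68.2 ± 6.20 CPM in Supt7l KO and 62.2 ± 3.11 CPM in WT (SD, n = 4 each), with overlapping lines and a log2 change of 0.14 ± 0.11 (SE). Supt7l KO thus came to 110% of the WT level over the Tril start and to 34.3% at the site upstream. That site holds the start of Gm16499 by RefSeq only, since the Ensembl columns place a Gm16499 start at the comparison peak.

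Taking the lost site minus its comparison peak within each library removes any error of scaling that both peaks share. For Slc2a9 the mean difference in log2 CPM was -0.57 ± 0.35 in Supt7l KO, 0.48 ± 0.24 in AID-Zzz3, 0.70 ± 0.29 in AID-Yeats2 and 0.45 ± 0.29 in WT (SD, n = 4 each). For Dcdc2a it was -1.67 ± 0.46 in Supt7l KO, -0.52 ± 0.35 in AID-Zzz3, -0.25 ± 0.34 in AID-Yeats2 and -0.51 ± 0.42 in WT. For Tril it was -4.11 ± 0.67 in Supt7l KO, -2.23 ± 0.86 in AID-Zzz3, -1.83 ± 0.31 in AID-Yeats2 and -2.47 ± 0.35 in WT. The Supt7l KO libraries lay apart from the WT libraries in each case, by -1.02 at Slc2a9, -1.16 at Dcdc2a and -1.65 at Tril on the mean. The gap was narrow at Slc2a9 (highest Supt7l KO library -0.07, lowest WT library 0.06) and at Dcdc2a (-1.13 and -0.99). The sites were chosen for a low level in these Supt7l KO libraries, and the Tril comparison peak after its values were seen. The separation is therefore a description and no independent check.

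**Figure D3:**
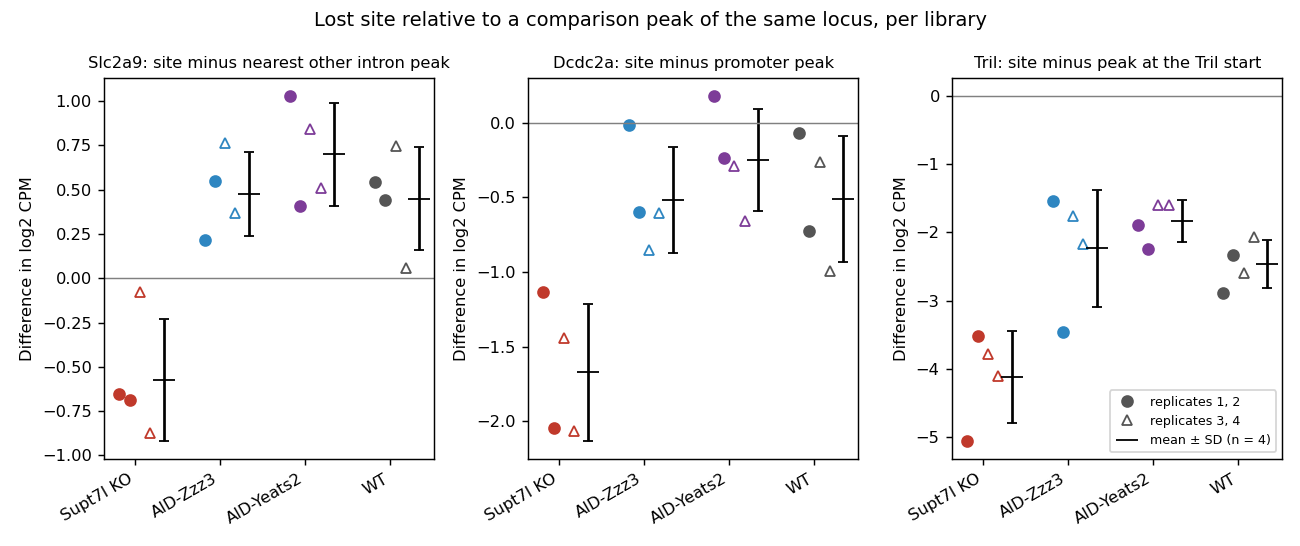
Difference in log2 CPM between each lost site and a comparison peak of the same locus (the nearest other intron peak for Slc2a9, the promoter for Dcdc2a, the peak over the start for Tril) in each library, with mean ± SD per line. Every Supt7l KO library lies below every WT library in each panel, and AID-Zzz3 replicate 2 is the lowest AID library at Tril. The lost sites were chosen for a low level in Supt7l KO.

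The RefSeq name column gives 12 further peaks to the 3 genes, which makes 19 with the 7 above. These 12 were added after their values were seen and are counted only. Over the 16 peaks other than the lost sites, 12 had a log2 change below 0 in Supt7l KO. Their median was -0.33, against 0.01 over all tested peaks. In this contrast 1 of the 16 was called lower, where 0.745% of all tested peaks were, and 3 had Supt7l KO and WT libraries that did not overlap, where 6.81% of all did. The called peak (chr5:38520552-38521894, intergenic, 26.6 kb from the Slc2a9 site) had 30.7 ± 3.73 CPM in Supt7l KO and 43.4 ± 4.96 CPM in WT (SD, n = 4 each), a log2 change of -0.50. It was not called when Supt7l KO replicate 1, 2 or 3 or WT replicate 2, 3 or 4 was left out. A peak in intron 7 of Dcdc2a, 97.4 kb from the lost site, had 9.40 ± 1.97 CPM in Supt7l KO and 15.8 ± 2.64 CPM in WT, a log2 change of -0.74. It was not called by edgeR, while the authors' deposited DESeq2 values give it an adjusted p of 0.0384. DESeq2 as run here called 2 of the 16 peaks lower. A peak 43.5 kb from the Tril site did not overlap between the lines either (log2 change -0.43) and was not called.

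The 5 nearest tested peaks on either side of each lost site, 30 in all and reaching up to 222 kb away, were listed whatever their gene. They include most of the other peaks of the 3 genes counted above, so the counts below are no separate observation. In Supt7l KO 21 of the 30 had a log2 change below 0, with a median of -0.28, and 1 was called lower, the intergenic peak at Slc2a9 above. The medians were -0.29 around the Slc2a9 site, -0.38 around the Dcdc2a site and -0.07 around the Tril site. None of the 30 came to the change of its lost site, which had been chosen for a low value. The lowest of the 30 was -1.07 ± 0.39 (SE), a peak at Gpld1, 78.8 kb from the Dcdc2a site. Over the 10 Mb bins that hold the sites (379, 261 and 280 peaks without those of the 3 genes), the median log2 CPM against the WT mean was taken per library. It averaged -0.02 in Supt7l KO and 0.02 in WT around Slc2a9, 0.09 and 0.00 around Dcdc2a, and -0.01 and 0.01 around Tril.

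**Figure D4:**
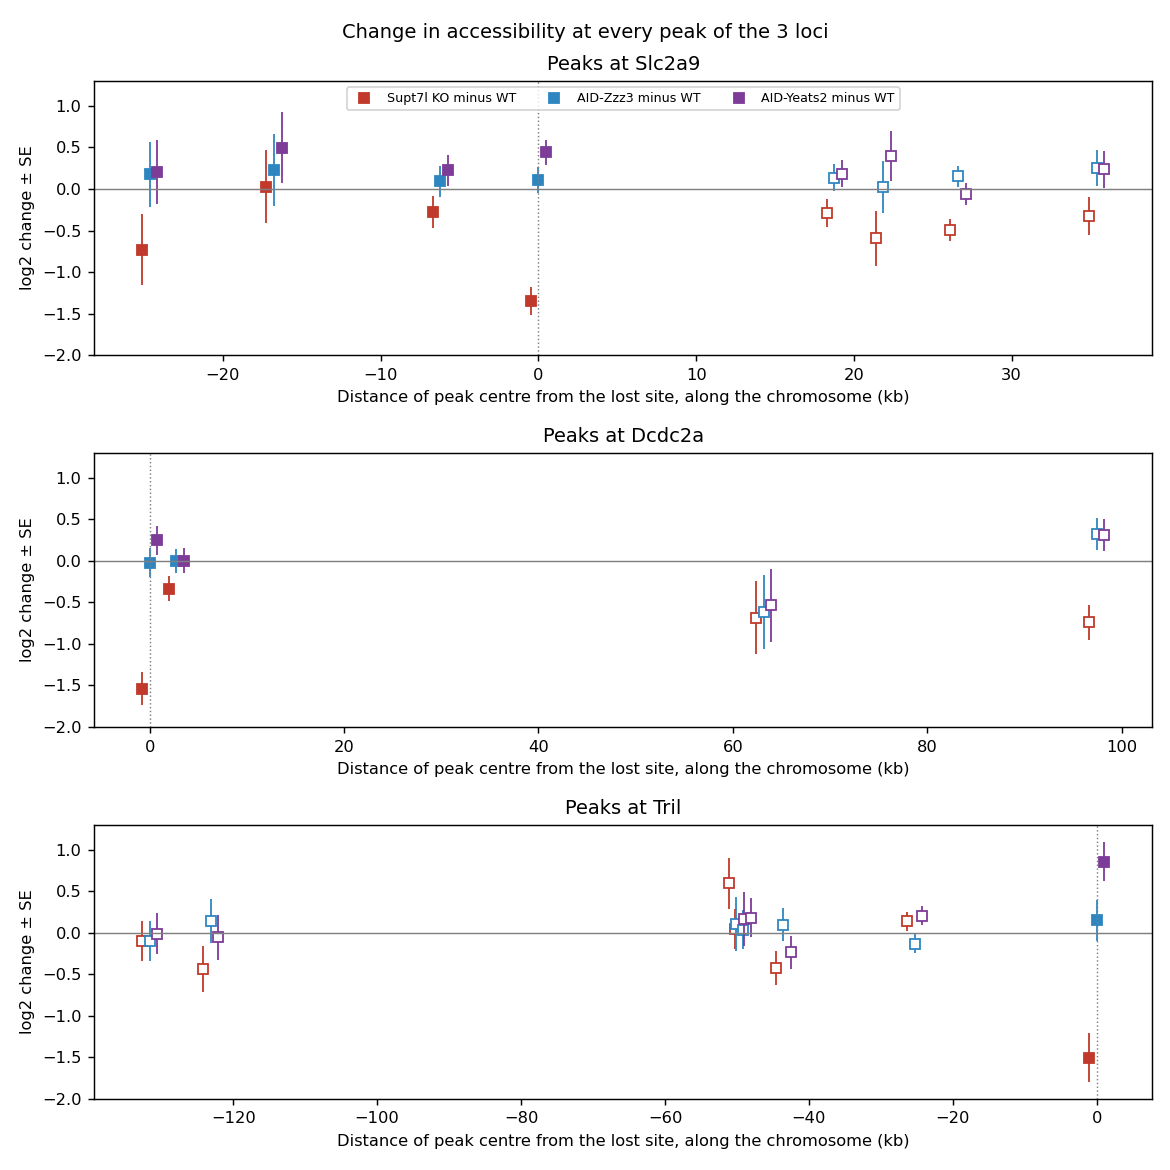
Fitted log2 change ± SE against WT for every peak of the 3 loci in Supt7l KO, AID-Zzz3 and AID-Yeats2, by the distance of the peak's centre from the lost site in kb. Filled squares are the 7 peaks by first gene name and open squares the 12 by RefSeq name. The lost sites, chosen as the lowest called peak of each gene in Supt7l KO, are the lowest Supt7l KO point of each panel. Both AID lines lie near or above 0 there.

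In the AID lines, where auxin targets a subunit of the ATAC complex for degradation, no site was lower than in WT beyond the spread. The WT libraries are the same ones that helped to choose the sites, so these differences are given without a p. At the Slc2a9 site AID-Zzz3 had 23.6, 25.3, 24.8 and 32.8 CPM and AID-Yeats2 had 32.1, 35.1, 34.5 and 32.5 CPM, against 25.5, 23.1, 25.7 and 24.4 CPM in WT. AID-Zzz3 overlapped WT (log2 change 0.11 ± 0.15, SE), and all AID-Yeats2 libraries lay above WT (0.44 ± 0.15). At the Dcdc2a site AID-Zzz3 had 26.3, 22.4, 17.7 and 22.0 CPM and AID-Yeats2 had 29.7, 28.1, 27.1 and 21.8 CPM, against 27.0, 23.4, 21.0 and 17.9 CPM in WT. Both overlapped WT, with log2 changes of -0.02 ± 0.18 and 0.25 ± 0.17 (SE).

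Near Tril the AID-Zzz3 libraries spread widely, with 16, 6.02, 17.2 and 10.3 CPM, and overlapped WT (8.20, 12.7, 9.35 and 14.1 CPM; log2 change 0.15 ± 0.25, SE). AID-Yeats2 had 19.4, 15.6, 22.2 and 22.6 CPM there, all above WT, with a log2 change of 0.85 ± 0.24 (SE). Within replicates 1 and 2 this difference was 0.74 and within replicates 3 and 4 it was 0.93. None of the 7 peaks had AID-Zzz3 and WT libraries without overlap, where 7.47% of all tested peaks did. Of the 7 peaks, 2 had AID-Yeats2 and WT libraries that did not overlap, the sites at Slc2a9 and near Tril, where 7.68% of all tested peaks did not overlap. The peak over the Tril start was also without overlap (71.7 ± 3.43 CPM in AID-Yeats2 and 62.2 ± 3.11 CPM in WT, SD, n = 4 each), with a log2 change of 0.21.

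At the 4 peaks that are not lost sites the AID lines could be tested against WT. None of the 4 was called in AID-Zzz3, where 0.980% of all tested peaks were called in either direction (smallest edgeR adjusted p 0.861), or in AID-Yeats2, where 0.822% were (smallest 0.646). At an unadjusted p under 0.05 the count was also 0 of 4 in both lines, and DESeq2 called none. At the weak Slc2a9 intron peaks DESeq2 gave no adjusted p in either line, so it could not have called them. The Dcdc2a promoter averaged 31.7 ± 3.49 CPM in AID-Zzz3, 31.8 ± 3.82 CPM in AID-Yeats2 and 32.2 ± 6.35 CPM in WT (SD, n = 4 each), with fitted log2 changes within 0.01 of 0 (SE 0.15 in both).

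AID-Yeats2 was compared directly with AID-Zzz3, a contrast that did not enter the choice of the sites. The log2 difference was 0.71 ± 0.24 (SE) near Tril, 0.33 ± 0.15 at the Slc2a9 site and 0.27 ± 0.18 at the Dcdc2a site. None of the 7 peaks was called (edgeR adjusted p 0.932, 0.956 and 0.956 at the 3 sites), and 2 of the 7 had an unadjusted p under 0.05, the sites near Tril and at Slc2a9. No peak of the 7 was without overlap between these lines, where 3.05% of all tested peaks were. Over all tested peaks edgeR and DESeq2 both called 0 in this contrast (0%), and edgeR gave 3572 an unadjusted p under 0.05 (5.13%). All 7 differences were above 0, with a median of 0.27 against 0.00 over all tested peaks. The lines were therefore not shown to differ at these sites.

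Across the 16 libraries the 3 sites varied together, with a Pearson r of log2 CPM of 0.94 between Slc2a9 and Dcdc2a, 0.84 between Slc2a9 and Tril, and 0.73 between Dcdc2a and Tril. These values are a description over libraries that share the Supt7l KO level by choice. The peaks most like each site over the 16 libraries, among peaks above the median level, were listed by the same measure. For Slc2a9 they were the promoter of Uty (0.97), a peak near the pseudogene Rpl30-ps2 (0.96) and an intron peak near Samd4 (0.95). For Dcdc2a they were peaks near Olfr718-ps1 (0.92), the promoter of Uty (0.92) and a peak near Ust (0.92). For Tril they were peaks near Mir28b (0.93), Prkg2 (0.91) and Mzf1 (0.90).

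Uty, the homologue of the histone demethylase gene Utx, lies on chromosome Y, and its promoter peak had 0 CPM in Supt7l KO, 17.9 CPM in AID-Zzz3, 22.7 CPM in AID-Yeats2 and 20.6 CPM in WT on the mean. Summed over the 7 chromosome Y peaks, a Supt7l KO library held 0 to 2 counts, against 114 to 370 in AID-Zzz3, 146 to 301 in AID-Yeats2 and 244 to 356 in WT. The Supt7l KO libraries thus differ from the others in chromosome Y signal as well as in genotype, and its part in the values at the 3 sites was not tested. Of the other peaks named, the one near Olfr718-ps1 averaged 3.49 CPM in Supt7l KO and 12.4 CPM in WT, and the one near Rpl30-ps2 averaged 9.82 CPM in Supt7l KO and 19.7 CPM in WT. Their log2 changes were -1.86 and -1.01.

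Of the 519 peaks called lower in Supt7l KO, 450 (86.7%) lay over 1000 bp from the Ensembl start that the table gives them. The 3 sites did too by that distance, although the one near Tril spans the RefSeq start of Gm16499. LTR elements were annotated at 30.7% of these 450, against 17.3% of all 50856 tested peaks at that distance, and elements of the ERVK class at 18.9% against 9.29%. Elements of the ERVL-MaLR class, as at the Dcdc2a site, were at 6.67% against 5.28%. The 15 other tested RLTR27 peaks, counted after the annotation of the site near Tril was seen, had WT means of 2.57 to 26.4 CPM. Their median log2 change was -0.50 in Supt7l KO, against 0.01 over all tested peaks. Of the 15, 14 were below 0 and 2 were called lower, where 0.745% of all tested peaks were. In AID-Zzz3 their median was 0.05 and in AID-Yeats2 0.03. In AID-Zzz3 1 of the 15 was called lower (also 1 by DESeq2), where 0.346% of all tested peaks were. In AID-Yeats2 0 of the 15 were called lower by edgeR or DESeq2, where edgeR called 0.298% of all tested peaks. The RLTR27 peaks called in Supt7l KO were at the promoter of the noncoding gene Gm12690, 52 bp from its start, and near Tollip. The Gm12690 peak had 9.75 ± 1.47 CPM in Supt7l KO and 17.5 ± 2.30 CPM in WT (log2 change -0.86, edgeR adjusted p 0.0194). The Tollip peak had 15.8 ± 2.04 CPM in Supt7l KO and 26.4 ± 3.10 CPM in WT (log2 change -0.74, edgeR adjusted p 0.0151, SD and n = 4 in each case). The peak near Tollip was the one called lower in AID-Zzz3 too, with a log2 change of -0.77 (edgeR adjusted p 0.0150). The 54 other MTEb peaks, the element at the Dcdc2a site, had a median of -0.01 in Supt7l KO, with 28 below 0 and 0 called by edgeR or DESeq2 (3 at an unadjusted p under 0.05).

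The relatives of the 3 genes showed few changes. Lists of glucose transporters, urate handling, doublecortin proteins, primary cilium genes and Toll-like receptor signalling held 69 genes, of which 60 had 192 tested peaks. In Supt7l KO 2 of the 192 were called lower and 0 higher (10 higher at an unadjusted p under 0.05; DESeq2 also called 2 and 0), a share near that over all tested peaks (0.745% lower and 0.342% higher). These were an intron peak of Bbs9, a part of the BBSome that carries cargo to the cilium (7.09 ± 0.885 CPM in Supt7l KO and 13.4 ± 2.67 CPM in WT; log2 change -0.91, edgeR adjusted p 0.0385), and an intron peak of Irak3, an inhibitor of Toll-like receptor signalling (2.87 ± 1.24 CPM in Supt7l KO and 10.4 ± 3.81 CPM in WT; log2 change -1.85, edgeR adjusted p 0.000124). No peak of the glucose transporters (39 peaks of 11 genes), the doublecortin genes (30 peaks of 7 genes) or the urate genes (6 peaks of 4 of 9 genes) was called by edgeR in any line. Their median log2 changes in Supt7l KO were -0.06, -0.03 and 0.04.

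In AID-Zzz3 0 of the 192 were called higher (13 at an unadjusted p under 0.05; 0 by DESeq2) and 1 was called lower, the promoter of Ift88, an intraflagellar transport protein (10.0 ± 1.15 CPM in AID-Zzz3 and 19.8 ± 7.36 CPM in WT; log2 change -0.97, edgeR adjusted p 0.0215). In AID-Yeats2 1 of the 192 was called higher (also 1 by DESeq2), an intergenic peak 22168 bp upstream of Map3k7, the kinase TAK1 that acts below Toll-like receptors (11.9 ± 3.48 CPM in AID-Yeats2 and 5.02 ± 1.71 CPM in WT; log2 change 1.21, edgeR adjusted p 0.0216). These shares lie near those over all tested peaks (0.346% lower and 0.634% higher in AID-Zzz3, 0.298% lower and 0.524% higher in AID-Yeats2).

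A library held between 2492045 and 5540559 counts in peaks. All 10 naive ES cell marker genes, among them Pou5f1, Sox2 and Nanog, had a promoter peak, with summed levels of 359 to 391 CPM in Supt7l KO, 284 to 342 in AID-Zzz3, 310 to 350 in AID-Yeats2 and 300 to 344 in WT. Promoter peaks were also present at 3 of 7 fibroblast, 4 of 6 primitive endoderm, 5 of 5 trophoblast and 6 of 6 neural marker genes, and accessibility of a promoter does not tell whether the gene is expressed. The summed fibroblast markers came to 30.8 to 35.7 CPM in Supt7l KO, 33.3 to 50.5 in AID-Zzz3, 34.9 to 39.8 in AID-Yeats2 and 31.7 to 36.3 in WT. The other sums were higher, given here in the same order of lines. They were 191 to 234, 190 to 216, 200 to 214 and 181 to 214 CPM for primitive endoderm. For trophoblast they were 105 to 124, 87.5 to 106, 86.0 to 118 and 100 to 109 CPM. For neural markers they were 179 to 201, 171 to 196, 161 to 177 and 184 to 191 CPM. The sums cover different numbers of promoters. The 1 peak over the start of Supt7l, shared with the divergent gene Slc4a1ap, held 84, 70, 46 and 60 counts in Supt7l KO and 83, 82, 79 and 63 in WT. Reads over a start do not check a knockout whose deleted part is not given in the sources used here.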

How the data were processed

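The authors deposited raw counts of each of 16 libraries over 70150 peaks shared by all libraries. The submitters' processing notes name build mm10 and, among the tools, MACS2 2.1.1.20160309, Bowtie2 2.2.6, DESeq2 1.16.1, bedtools 2.26.0 and HOMER. The same deposited table holds the authors' DESeq2 log2 fold changes and adjusted p-values. Distances and features come from the HOMER annotation (Ensembl 94 and RefSeq columns). How Tn5 cut positions were shifted is not given in the sources used here.

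Counts of all 16 libraries were fitted together with edgeR 4.0.16 in R 4.3.3 (quasi-likelihood F tests, two-sided, TMM, filterByExpr), which left 69692 peaks and removed 458. All 7 peaks of the 3 genes passed. P-values were adjusted over all tested peaks and called under 0.05. The code was tested on simulated data. Log2 CPM per library used a prior count of 2. SEs of fitted changes were derived from the F statistic. Alternatives were other scalings, no filter, DESeq2 1.42.0, blocks for replicate number and set, the fit of 2 groups alone, replicate sets and leaving out each library. Every peak with one of the 3 genes as first gene name is reported; the other peaks are neighbours, most alike peaks and called members of the gene lists. The genes, sites and lists were chosen with earlier results of these data known. No libraries were identical. Same-numbered libraries of different lines had deviations correlated by 0.0163 to 0.111, with 1 of 24 pairs over 0.1, so numbers were not taken to pair libraries. By set (replicates 1 and 2, or 3 and 4), all 48 pairs of the same set were correlated above 0, and 0 of 48 pairs of different sets were. The main fit had no term for the set, which entered only as an alternative. Of the gene lists, 1 called peak is not reported here.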

Additional observations from a re-analysis of the deposited data

Results flagged for a closer look

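Among the 28 groups of 4 libraries at the 7 peaks, 2 held a library far from the other 3 by Dixon's test, which chance flags in about 1 group in 20. At the weak Slc2a9 intron peak (chr5:38469814-38470147), Supt7l KO replicate 3 had 0.615 CPM, from 2 counts, while the other Supt7l KO libraries had 2.21 to 2.45 CPM. At the Dcdc2a promoter, AID-Yeats2 replicate 1 had 26.2 CPM, while the other AID-Yeats2 libraries had 33.2 to 34.6 CPM. No group at a lost site held such a library.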

How the results depend on the processing

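The drop in Supt7l KO at the 3 sites kept its direction under every alternative run, in the libraries from which the sites were chosen. The fitted log2 change ran from -1.39 to -1.31 at Slc2a9, -1.75 to -1.30 at Dcdc2a and -1.55 to -1.44 near Tril, and over the fits that left out 1 library from -1.41 to -1.32, -1.66 to -1.40 and -1.84 to -1.22. With a promoter window of 3000 bp in place of 1000 bp, 1 of the 3 sites lay outside it by the table's Ensembl distance. This was the site near Tril, measured to the Tril start, and it spans the RefSeq start of Gm16499.

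The counts over all peaks moved more. With a replicate block by number, Supt7l KO had 735 lower (519 in the main fit) and 404 higher. AID-Zzz3 then had 503 lower and 754 higher, and AID-Yeats2 480 lower and 678 higher. Blocked by set (replicates 1 and 2 against 3 and 4) these were 769, 413, 508, 781, 496 and 707. The labels do not say whether the number pairs libraries, and 9 of 16 libraries correlated best with their own number. From replicates 1 and 2 alone, 84 were lower and 32 higher in Supt7l KO, 9 and 16 in AID-Zzz3, and 11 and 11 in AID-Yeats2. From replicates 3 and 4 alone, 218 were lower and 129 higher in Supt7l KO, 200 lower and 222 higher in AID-Zzz3, and 40 lower and 90 higher in AID-Yeats2. Without 1 library at a time the counts were 136 to 616 lower and 29 to 315 higher in Supt7l KO, 70 to 363 and 146 to 573 in AID-Zzz3, and 40 to 190 and 127 to 293 in AID-Yeats2. WT replicate 3 gave the lowest Supt7l KO counts when left out. The cause was not tested.

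Differences near 0 that were not called changed sign. At the Dcdc2a promoter AID-Zzz3 minus WT was 0.000537 with RLE factors, 0.0194 with library totals, 0.000737 with DESeq2 and 0.13 with replicates 3 and 4, and -0.10 to 0.0996 without 1 library. AID-Yeats2 minus WT there was -0.0053 with the replicate number block, -0.14 with replicates 1 and 2, and -0.0972 to 0.11 without 1 library. AID-Yeats2 minus AID-Zzz3 there was -0.022 with replicates 1 and 2 and -0.0627 to 0.0787 without 1 library. At the intron peak of Slc2a9 24.6 kb from the site, replicates 3 and 4 gave -0.33 (AID-Zzz3), -0.61 (AID-Yeats2) and -0.27 (AID-Yeats2 minus AID-Zzz3). Without 1 library these were -0.20 to 0.32, -0.19 to 0.42 and -0.37 to 0.41. At the intron peak 16.8 kb away, AID-Zzz3 was -0.25 with replicates 1 and 2, and AID-Yeats2 minus AID-Zzz3 was -0.052 with replicates 3 and 4 and -0.11 to 0.47 without 1 library. At the intron peak 6.21 kb away, AID-Zzz3 ran from -0.0744 to 0.23 and AID-Yeats2 minus AID-Zzz3 from -0.0121 to 0.30 without 1 library. Among the 16 other peaks of the 3 loci, a count added after the data were seen, 0 to 2 were called lower in Supt7l KO across alternatives. At the weak Slc2a9 peaks the depth limits what could be seen.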
